A study of Mus musculus with 24 samples.

Results

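Expression of 7 genes was followed in the retina and eye cup of each of 12 mice: the pseudogenes Gm13394 and Gm7135, Hmga2-ps1, listed as a lncRNA, AY702102, which the annotation assigns to neither class, the Rosa26 transcript Gt(ROSA)26Sor, and its neighbours Thumpd3 and Setd5. The 7 were taken by gene name from the 56748 genes of the deposited count table. The first 4 were chosen by their measured rise in PRDM13-OE over wildtype retinas with dox, so their values in that comparison are given as a description and carry no test. Earlier results in all 24 libraries were known when they were chosen, so tests of these 4 genes in the other comparisons are not independent of the choice. The other 3 were picked for their position at the site of the transgene. PRDM13-OE mice are C57BL/6J mice heterozygous for a knock-in at Rosa26, in which the ubiquitous EF-1α promoter drives rtTA and the TRE3G promoter drives human PRDM13. Wildtype littermates without the knock-in were the controls. Mice of either genotype were left untreated or drank water with dox at 2 mg/mL and sucrose at 10% for 72 hours from P28. Each of these 4 groups held 3 mice, and each mouse gave a neural retina and an eye cup of RPE, choroid and sclera, which made 24 libraries of polyA RNA.

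Rosa26 is a locus that is open in most mouse cells, and transgenes are placed there because they are expressed widely and the insertion does little harm. Its own product is a noncoding transcript without a known protein, read from the opposite strand to Setd5, which encodes a chromatin regulator, and to Thumpd3, which encodes an enzyme that methylates tRNA. In a dox-inducible design, rtTA is made with or without the drug, and it activates the TRE3G promoter when dox is present. Processed pseudogenes are copies of spliced mRNAs that were written back into the genome, and reads from the parent gene can be assigned to such a copy when the sequences are nearly the same.

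Gm13394 (ENSMUSG00000083773, GRCm39 chr2:28823622-28824621, minus strand) is listed as a processed pseudogene and lies inside the gene Cfap77 on the same strand. Over its 1000 bases, it was 99.9% identical to the mRNA of Gapdh, the glycolytic enzyme gene on chromosome 6, which starts 12.1 Mb from the end of Gt(ROSA)26Sor. A single substitution separated them, A346C, with the Gapdh base first, the position counted from the 5′ end of Gm13394, and the Gm13394 base last. The site falls in exon 4 of 7 of the Gapdh transcript. The table held 21 further copies at 99% identity or more over at least 990 aligned bases, of 28 genes with a match of that identity at any length, and Gapdh and these 21 all differed from Gm13394 at that position, so a read that lies within these bases has to cover that position to tell Gm13394 from Gapdh. The 61 bases around the site are shown because they hold the only difference between Gm13394 and Gapdh over this length, with the base that differs in capitals. The Gapdh window is transcript positions 408 to 468 and the Gm13394 window is chr2:28824246-28824306, minus strand.
Gapdh: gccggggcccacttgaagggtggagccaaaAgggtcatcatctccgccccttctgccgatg
Gm13394: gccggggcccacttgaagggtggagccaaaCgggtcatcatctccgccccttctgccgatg

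The library depth and the mouse identities were checked first. Between 15825059 and 24908314 reads were counted on genes per library. The retina and eye cup of each mouse agreed on Xist and 4 Y-linked genes in 12 of 12 mice, so no retina was paired with the eye cup of a mouse of the other sex. By these genes, the 3 PRDM13-OE mice with dox were all female, while the untreated PRDM13-OE group and the wildtype group with dox held 1 male each and the untreated wildtype group 2. Sex was not a term in the tests, and its part in the results was not tested. Human PRDM13 was not analysed here, so the genotype labels were not checked by the transgene itself. The labelled tissues held their markers, as the summed level of 7 rod genes ran from 46456 to 69038 CPM in the retinas and the summed level of 7 RPE genes from 7415 to 55237 CPM in the eye cups, against 556 to 1005 CPM for the RPE genes in the retinas. CPM is the count relative to library size, scaled by edgeR's TMM factors within each tissue. The eye cups also held 2704 to 42447 CPM of the rod genes, so they carried retinal RNA to very different extents. The libraries of untreated PRDM13-OE mouse 1 stood apart from those of the other PRDM13-OE mice in Gm13394, and the values of the members in untreated PRDM13-OE retinas are given with and without it. Its retina also had the highest fibroblast and skeletal muscle sums of the 12 retinas, at 46.8 and 31.5 CPM.

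Gm13394 was high in 5 of the 6 PRDM13-OE mice, in both tissues and with or without dox. In PRDM13-OE retinas with dox, it had 8651, 8930 and 9733 counts, or 509, 490.5 and 525 CPM. In untreated PRDM13-OE retinas, it had 79, 8674 and 8023 counts, or 4.84, 507 and 493 CPM. The 6 wildtype retinas lay between 44 and 89 counts, or 2.51 and 4.46 CPM. The retinas therefore fell at either of 2 levels, and untreated PRDM13-OE mouse 1 sat at the lower one with the wildtype mice, just above their range. Among the 5 high retinas the range was 490.5 to 525 CPM, and the lowest of them was 110.1-fold above the highest wildtype retina.

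The eye cups of the same mice showed the same split into high and low. Gm13394 had 4622, 4202 and 9093 counts in PRDM13-OE eye cups with dox, and 62, 5400 and 3290 counts in untreated PRDM13-OE eye cups. The 6 wildtype eye cups held 32 to 135 counts. Untreated PRDM13-OE mouse 1, at 3.12 CPM, was within the wildtype range of 2.11 to 7.54 CPM, and the lowest of the other 5 PRDM13-OE eye cups, at 204 CPM, was 27.1-fold above the highest wildtype eye cup. Unlike the retinas, the 5 high eye cups varied, from 204 to 518 CPM. The eye cup with the most Gm13394, PRDM13-OE mouse 3 with dox, also had the most rod RNA of these 5, at 32104 CPM for the 7 rod genes against 4833 to 18521 CPM in the other 4. The part of retinal RNA in the eye cup level was not tested. In bulk tissue, a change in the share of a cell type and a change in RNA per cell cannot be told apart.

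**Figure D1:**
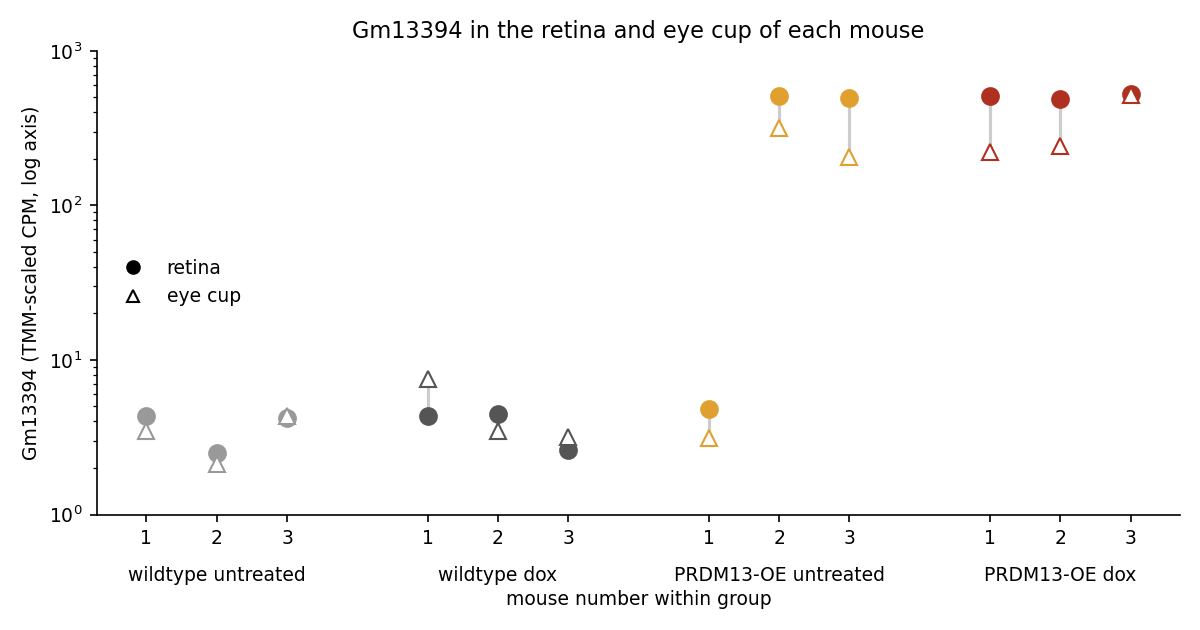
TMM-scaled CPM of Gm13394 on a log axis for the retina (filled circles) and eye cup (open triangles) of each of the 12 mice, with a grey line joining the tissues of a mouse. The 5 high PRDM13-OE mice are at 490.5 CPM or more in the retina and 204 CPM or more in the eye cup, while untreated PRDM13-OE mouse 1 is at 4.84 and 3.12 CPM.

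The untreated libraries were not in the contrast that chose Gm13394, but their values were known then, so the tests below are not independent of the choice. With all 3 mice per group, the log2 ratio of untreated PRDM13-OE over untreated wildtype retinas was 6.49 (SE 1.14, adjusted p of 0.628 by edgeR, unadjusted p = 9.11e-05), and it did not pass the test. No gene of the 20668 tested was called there, where a call needed both an adjusted p below 0.05 and more than 1 unit on the log2 scale, so percent called was 0.0, with 778 genes (3.76%) at an unadjusted p under 0.05 and 2 genes called by DESeq2. Of the members, 6 were tested, 0 were called by edgeR, 2 had an unadjusted p under 0.05 and 1, Gm13394, was called by DESeq2. Without untreated PRDM13-OE mouse 1, the log2 ratio was 7.07, which is a description with no test, since this mouse was singled out by its low Gm13394. Untreated eye cups gave 5.75 (SE 1.44, adjusted p of 1.0 by edgeR) with all mice and 6.32 without mouse 1, again with no test, and 0.0% of 21588 genes were called there with all mice, with 404 (1.87%) at an unadjusted p under 0.05 and 3 called by DESeq2. With all mice, the difference between the untreated genotypes did not pass the test in edgeR in either tissue, while it passed with DESeq2 in both. In the retina it also passed without a filter on low counts, at the same log2 ratio of 6.49, a fit whose p-values are not read here.

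Gm13394 was also compared with and without dox. In wildtype retinas, its log2 ratio with dox was 0.04 (SE 0.26, adjusted p of 0.974 by edgeR). In PRDM13-OE retinas it was 0.60, and 0.02 without untreated mouse 1, as a description with no test, since these are the dox libraries that chose the gene. Among eye cups with dox, other libraries of the mice that served to choose it, Gm13394 was the only gene called higher of 21758 tested (percent called higher 0.0046), with a log2 ratio of 6.16 (SE 0.56, adjusted p of 0.0405 by edgeR). The eye cup values were known when the gene was chosen, so the call is not independent of that choice. This call was lost in 5 of the 6 fits that left out an eye cup, all but that without PRDM13-OE mouse 3, and in 4 of the 7 other alternatives, with values from 5.66 to 6.65. DESeq2 called 100 genes in the same comparison, among them 2 members, Gm13394 and Gm7135.

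Gapdh and its other copies did not share the pattern of Gm13394. Gapdh had 4109, 5434 and 2732 counts in PRDM13-OE retinas with dox, 5238, 204 and 2094 in untreated PRDM13-OE retinas, 4347, 1851 and 277 in wildtype retinas with dox, and 5537, 2617 and 181 in untreated wildtype retinas. These counts spread 37.2-fold between retinas in CPM and overlapped between the genotypes, and the log2 ratio of PRDM13-OE over wildtype with dox was 0.91 (SE 0.61, adjusted p of 0.38 by edgeR). It was 1.98 without wildtype retina 1 with dox (adjusted p of 0.0367 by edgeR). Without a filter on low counts, it was the same 0.91 at an adjusted p of 3.67e-47 by edgeR. The counts still overlapped, so that p cannot reflect the spread between mice and is not read. Gapdh also differed between the tissues of a mouse, as PRDM13-OE mouse 2 with dox had 5434 counts in its retina and 107 in its eye cup. In FPKM, which divide by the length of a gene's merged exons, Gm13394 was at 443 to 473 and Gapdh at 32.1 to 65.2 in PRDM13-OE retinas with dox. The lengths used were 1000 bases for Gm13394 and 4133 for Gapdh, of which the copy covers only 1000, so the FPKM gap is wider than that of the counts above. How reads that match several copies were assigned is not given in the sources used here, so the levels of Gapdh and of its copies, Gm13394 among them, are uncertain in every library.

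Of the 21 other copies, 14 were tested in the retinas with dox, 0 were higher and 1 was lower at an adjusted p under 0.05 in PRDM13-OE, against 5.01% of all 20560 genes higher and 7.51% lower. The lower copy was Gm7336 on chromosome 7, which was named after its values were seen. It had 215, 220 and 263 counts in PRDM13-OE retinas with dox and 380, 395 and 299 in wildtype retinas with dox, a log2 ratio of −0.65 (SE 0.10, adjusted p of 0.00168 by edgeR). In the untreated PRDM13-OE retinas it had 412, 237 and 199 counts. The 5 retinas with high Gm13394 thus lay at 12.1 to 14.2 CPM of Gm7336 and the other 7, including that of untreated PRDM13-OE mouse 1, at 17.8 to 25.3 CPM, while in the eye cups the same split gave overlapping ranges of 5.46 to 23.3 and 6.28 to 23.7 CPM. The share of all genes that separate under this split was not counted, so nothing is read from it.

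The pattern of Gm13394 over all 24 libraries had no close match among 20760 genes. As a description, Pearson's r of log2(CPM + 1) with Gm13394 passed 0.9 for 0 genes, over libraries that share tissues and mice. The 5 most alike were the noncoding gene ENSMUSG00000120397 on chromosome 15 (r = 0.81), Mlf1 (r = 0.76), Fabp7, the fatty acid binding protein of radial and Müller glia (r = 0.74), the pseudogene Gm13303 (r = 0.71) and Prtg (r = 0.69). ENSMUSG00000120397 had 27, 38 and 38 counts in PRDM13-OE retinas with dox but 2, 9 and 8 in the untreated ones and 1 to 6 in wildtype retinas. It was thus lower without dox, unlike Gm13394. Gm13303 averaged 0.636 CPM with dox and 0.466 CPM untreated in PRDM13-OE retinas, against 0.0957 and 0.151 CPM in wildtype, with at most 14 counts in a retina. Of the 4 genes within 100 kb of Gm13394, 3 were tested in the retinas with dox and 0 passed an adjusted p of 0.05, and Cfap77, which contains Gm13394, averaged 0.55 CPM in PRDM13-OE against 0.17 in wildtype (log2 ratio 1.66, adjusted p of 0.0996 by edgeR).

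AY702102, Gm7135 and Hmga2-ps1 were low everywhere and highest in PRDM13-OE mice given dox. AY702102 (ENSMUSG00000103935, chr2:169803935-169805107, minus strand) is listed as a gene whose transcription still awaits experimental proof, and lies within Tshz2 on the other strand. It matched no other gene of the table in sequence. Gm7135 (ENSMUSG00000101348, chr1:97274200-97500740, plus strand) is a transcribed pseudogene that was 81.8% identical over 1909 bases to Slco6d1, a gene of the organic anion transporter family that was listed at 0 in all 24 libraries. Hmga2-ps1 (ENSMUSG00000121135, chr1:176662183-176663734, minus strand) is listed as a lncRNA, lies within Sdccag8 on the other strand, and was 95% identical over 643 bases, in reverse orientation, to Hmga2, which encodes an architectural chromatin protein of embryonic cells. In the retinas with dox, PRDM13-OE over wildtype gave log2 ratios of 0.12 for Tshz2 and 0.31 for Sdccag8 (adjusted p of 0.258 and 0.0659 by edgeR).

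AY702102 was counted only in PRDM13-OE mice with dox. It had 18, 17 and 14 counts in their retinas and 0 in each of the other 9 retinas. Their eye cups had 0, 3 and 10 counts, and 0 in each of the other 9 eye cups. A count of 0 allows up to 3 counts per library, or 0.143 to 0.185 CPM in the retinas, and against that floor AY702102 was at least 5.38-fold higher than in wildtype retinas with dox and at least 5.05-fold higher than in untreated PRDM13-OE retinas. Floors and counting intervals cover counting error only. The eye cup mean was at least 1.66-fold higher than in wildtype, which rests on PRDM13-OE mouse 3 at 0.57 CPM, since the other 2 were at 0 and 0.174 CPM and the floor was 0.119 to 0.198 CPM. The groups overlapped (adjusted p of 0.597 by edgeR). AY702102 entered that test only through the PRDM13-OE eye cups, so this p is not read.

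Gm7135 had 31, 38 and 35 counts in PRDM13-OE retinas with dox. It had 8, 0 and 5 counts in untreated PRDM13-OE retinas, 1, 0 and 1 in wildtype retinas with dox, and 0 in the 3 untreated wildtype retinas. With dox, the summed counts of 104 and 2 gave a ratio of 51.2 (95% exact interval from counting alone 13.8 to 428). The 8 counts were in untreated mouse 1, the PRDM13-OE mouse with low Gm13394. In the untreated retinas, PRDM13-OE was at least 1.76-fold above wildtype by the floor of 3 counts, a bound that rests on mouse 1 at 0.49 CPM, since the other 2 were at 0 and 0.308 CPM. The groups overlapped, with 1 PRDM13-OE retina at 0 (adjusted p of 0.995 by edgeR). Gm7135 reached the count filter there only through the PRDM13-OE retinas, so this p is not read. Without mouse 1, too few counts were left to test Gm7135, and no fold bound is drawn from the 0 and 5 counts of the other 2. Gm7135 in the eye cups had 36, 8 and 35 counts in PRDM13-OE with dox, 1, 0 and 4 in untreated PRDM13-OE, 4, 2 and 0 in wildtype with dox, and 0 in the 3 untreated wildtype mice. The groups with dox did not overlap there, as for the 6.8% of 21758 genes that lay higher without overlap, with a log2 ratio of 3.75 (SE 1.00) that did not pass the test in edgeR (adjusted p = 0.597, unadjusted p = 0.00653) and passed it in DESeq2 (adjusted p = 0.0498). Gm7135 reached the count filter there only through the PRDM13-OE eye cups, so neither result is read.

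Hmga2-ps1 had 78, 61 and 79 counts in PRDM13-OE retinas with dox. The other 9 retinas held 2 to 12 counts, with 2, 12 and 6 in untreated PRDM13-OE, 3, 4 and 3 in wildtype with dox, and 6, 8 and 2 in untreated wildtype. Its CPM was 4.07 ± 0.642 (SD, n = 3) in PRDM13-OE with dox and 0.188 ± 0.0232 (SD, n = 3) in wildtype with dox, 20.7-fold by the edgeR estimate. Its eye cup counts were 19, 17 and 47 in PRDM13-OE with dox, 6, 12 and 7 in untreated PRDM13-OE, 5, 8 and 12 in wildtype with dox, and 8, 13 and 22 in untreated wildtype. The eye cup groups with dox did not overlap (6.8% of genes lay higher in this way), but untreated wildtype mouse 3 was above 2 of the 3 PRDM13-OE eye cups with dox in CPM, and the log2 ratio of 1.95 (SE 0.59) did not pass the test (adjusted p of 0.597 by edgeR, unadjusted p = 0.0123). Hmga2 itself averaged 0.444 CPM in PRDM13-OE retinas with dox and 0.474 in wildtype.

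Of the 7 members, 4 were called in the retinas with dox and 6 had an adjusted p under 0.05, against 2.41% and 12.5% of all genes, from which nothing is read, since that contrast chose 4 of them. In wildtype retinas with and without dox, 5 of the 7 members were tested, 0 passed the test and DESeq2 called 0. Among all genes there, edgeR called 0.00485% of 20631 and DESeq2 called 26. In PRDM13-OE retinas, AY702102 was higher with dox than without by the bound given above, Gm7135 by a log2 ratio of 2.84 (3.62 without untreated mouse 1) and Hmga2-ps1 by 3.32 (2.90 without it). This is a description, since it uses the libraries that chose the genes, and percent called higher among all 20603 genes there was 0.417. Eye cups of PRDM13-OE mice had 0 of 7 members called with dox against without (percent called 0.0139), 2 had an unadjusted p under 0.05 (Gm7135 and Gt(ROSA)26Sor, against 4.14% of 21604 genes), and DESeq2 called 0 members and 54 genes in all. Comparisons of the same tissue share control libraries, so their values are not independent of each other.

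**Figure D2:**
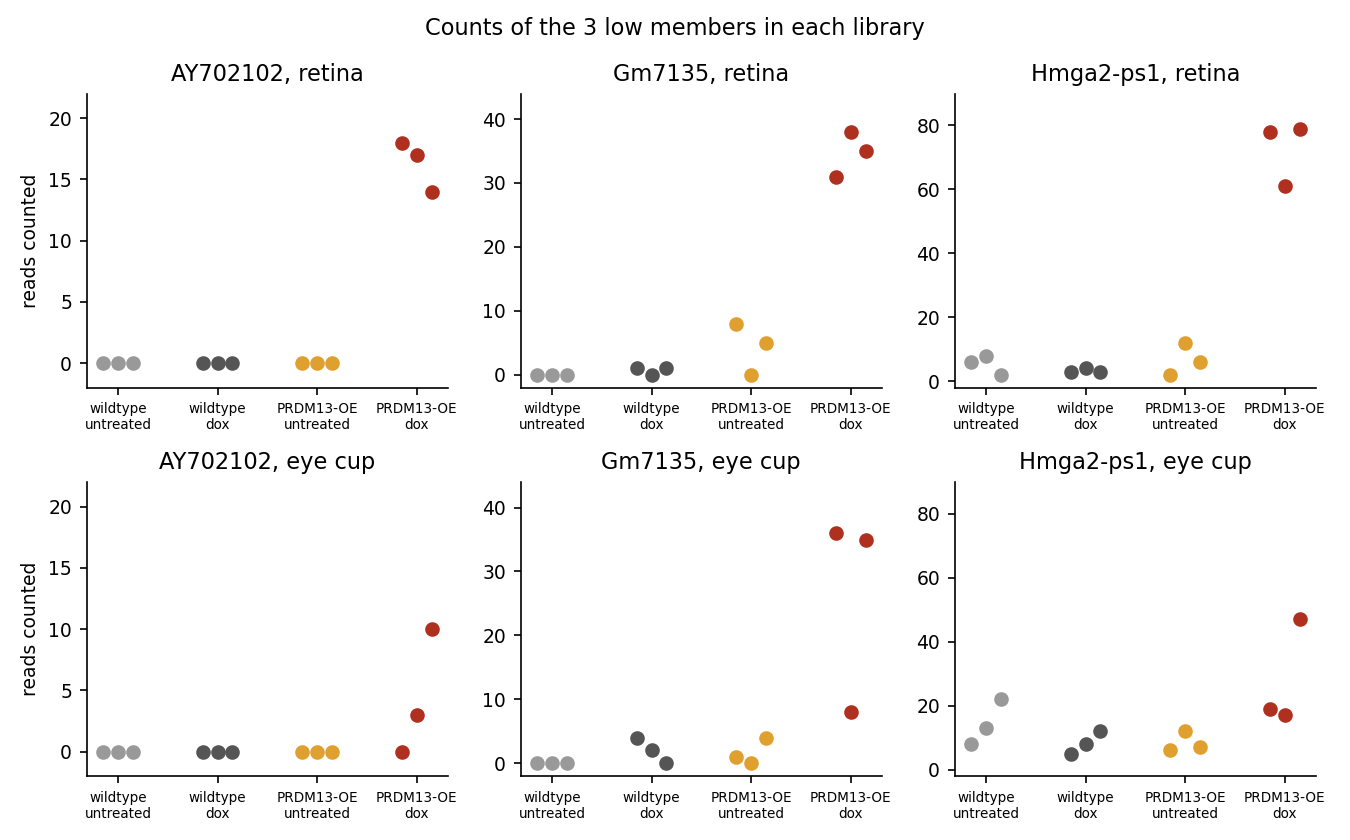
Reads counted on AY702102, Gm7135 and Hmga2-ps1 in each library, by group, with the retinas in the upper and the eye cups in the lower panels, and each point 1 mouse. In the retina the 3 PRDM13-OE mice with dox lie above the other 9 for each gene, and in the eye cup the groups are closer, with 0, 3 and 10 counts of AY702102 in PRDM13-OE with dox.

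The sequences before the starts of these 3 genes are shown because the genes rose together with dox in PRDM13-OE retinas. PRDM13 is known to act at sites of bHLH factors, which bind E-boxes, so the windows of 250 bases before to 50 bases after each gene start (GRCm39, GENCODE starts, gene strand) were searched for the E-box CANNTG on both strands, which is its own reverse complement, with overlapping matches counted and matches in capitals. At least 1 match was in 75.4% of the 56654 windows of this length for all genes, with a median of 1, and 6 or more were in 0.72%. AY702102 (chr2:169805058-169805357) held 6, of which a pair overlaps, Gm7135 (chr1:97273950-97274249) held 2 and Hmga2-ps1 (chr1:176663685-176663984) held 0. These are counts of letters and not of bound sites.
AY702102: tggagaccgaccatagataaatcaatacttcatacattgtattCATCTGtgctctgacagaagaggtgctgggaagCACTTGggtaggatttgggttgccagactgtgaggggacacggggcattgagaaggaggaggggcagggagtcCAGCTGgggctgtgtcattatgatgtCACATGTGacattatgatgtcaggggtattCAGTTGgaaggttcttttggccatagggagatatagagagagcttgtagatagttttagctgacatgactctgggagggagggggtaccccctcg
Gm7135: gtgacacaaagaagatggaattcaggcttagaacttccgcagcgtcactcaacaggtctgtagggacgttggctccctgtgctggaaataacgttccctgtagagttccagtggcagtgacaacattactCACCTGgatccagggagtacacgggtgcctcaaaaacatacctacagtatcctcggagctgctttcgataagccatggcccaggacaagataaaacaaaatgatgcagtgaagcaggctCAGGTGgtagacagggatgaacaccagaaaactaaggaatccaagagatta
Hmga2-ps1: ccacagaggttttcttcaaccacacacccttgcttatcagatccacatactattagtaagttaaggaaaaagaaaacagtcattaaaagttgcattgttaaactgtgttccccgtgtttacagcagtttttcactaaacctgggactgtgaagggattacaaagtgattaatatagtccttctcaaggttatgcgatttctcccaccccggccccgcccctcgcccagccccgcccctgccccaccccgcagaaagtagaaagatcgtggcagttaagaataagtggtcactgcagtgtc

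Pseudogenes as a class, Gm13394 and Gm7135 included, were counted beside all genes. Of 13649 genes with a pseudogene biotype, 1455 were tested in the retinas with dox, 15 were called higher and 5 lower, against 186 and 309 of all 20560 genes, and 2.75% passed an adjusted p of 0.05 in either direction, against 12.5% of all genes tested. Their median log2 ratio was 0.07, against 0.01 over all genes. Of the eye cup pseudogenes with dox, 1 of 1522 tested passed, which was Gm13394, against 4 of 21758 genes in all.

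Gt(ROSA)26Sor (ENSMUSG00000086429, chr6:113043843-113054294, minus strand) rose in PRDM13-OE retinas given dox. It had 277, 333 and 276 counts, or 16.3, 18.3 and 14.9 CPM, in PRDM13-OE with dox. It was at 9.32, 9.40 and 10.3 CPM in untreated PRDM13-OE, 11.2, 9.34 and 10.7 CPM in dox-treated wildtype, and 11.1, 13.1 and 10.5 CPM in untreated wildtype. The 3 PRDM13-OE retinas with dox were above the other 9, whose order by group mean was untreated wildtype (11.6 ± 1.37, SD, n = 3), wildtype with dox (10.4 ± 0.957, SD, n = 3) and untreated PRDM13-OE (9.66 ± 0.527, SD, n = 3). Neighbours in this order overlapped. The share of all genes with these 3 retinas above the other 9 was not counted. PRDM13-OE exceeded wildtype with dox by a log2 ratio of 0.66 (SE 0.12, adjusted p of 0.00302 by edgeR), where 15.9% of 20560 genes lay higher without overlap and 5.01% were higher at an adjusted p under 0.05. Dox raised it in PRDM13-OE retinas by 0.77 on the log2 scale (SE 0.12, adjusted p of 0.0016 by edgeR, against 2.04% of genes higher), with 0.74 when untreated mouse 1 was left out (adjusted p of 0.00422 by edgeR). Neither change reached the log2 ratio of 1 that a call required.

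Without dox, or without the knock-in, the change in Gt(ROSA)26Sor did not pass the test. In untreated retinas, the log2 ratio of PRDM13-OE over wildtype was −0.25 (SE 0.14, adjusted p of 0.995 by edgeR), with all 3 PRDM13-OE retinas just under all 3 wildtype retinas, as for 4.94% of genes, and −0.23 without mouse 1. In wildtype retinas with dox it was −0.15 (SE 0.13, adjusted p of 0.78 by edgeR). The difference between the effects of dox in the genotypes was 0.92 on the log2 scale (SE 0.17, adjusted p of 0.00431 by edgeR) and 0.90 without mouse 1 (adjusted p of 0.011 by edgeR), where 1.19% of 22538 genes were higher at an adjusted p under 0.05. Eye cup Gt(ROSA)26Sor was at 11.1, 11.6 and 15.3 CPM in PRDM13-OE with dox, 6.44, 7.56 and 7.95 in untreated PRDM13-OE, 9.77, 7.99 and 8.32 in wildtype with dox, and 7.80, 7.47 and 7.07 in untreated wildtype. The 3 eye cups with the knock-in and dox were again above the other 9, a split for which the share of all genes was not counted. The log2 ratio over wildtype with dox was 0.58 (SE 0.23), which did not pass the test (adjusted p of 0.597 by edgeR, unadjusted p = 0.039). Of 21758 genes, 6.8% lay higher than in wildtype with dox without overlap. Whether the change differed between the tissues was not tested.

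Setd5 (ENSMUSG00000034269, chr6:113054326-113130396, plus strand) starts 31 bases from Gt(ROSA)26Sor, is read in the other direction, and also rose in the retina, by less. It was at 124, 145 and 129 CPM in PRDM13-OE retinas with dox. It was at 115, 103 and 105 CPM in untreated PRDM13-OE, 100.0, 106 and 101 CPM in dox-treated wildtype, and 118, 106 and 113 CPM in untreated wildtype. The lowest PRDM13-OE retina with dox lay above the other 9, where 15.9% of 20560 genes were higher than in wildtype with dox without overlap and 5.01% were higher at an adjusted p under 0.05. The log2 ratio with dox over wildtype was 0.37 (SE 0.07, adjusted p of 0.00316 by edgeR), and it held in 6 of 6 fits that left out a retina. The change with dox within PRDM13-OE was 0.30 (SE 0.07, adjusted p of 0.0353 by edgeR), and this was lost in 4 of the 6 such fits, those without PRDM13-OE retina 2 or 3 with dox or untreated retina 2 or 3, with values from 0.22 to 0.36 over the alternatives and 0.34 without untreated mouse 1. The difference between the effects of dox in the genotypes was 0.43 (SE 0.10, adjusted p of 0.0198 by edgeR), which was lost in 2 of 12 fits, without PRDM13-OE retina 2 with dox or untreated wildtype retina 1, with values from 0.35 to 0.51 over the alternatives and 0.48 without untreated PRDM13-OE mouse 1. In untreated retinas, the log2 ratio of PRDM13-OE over wildtype was −0.05 (SE 0.07, adjusted p of 0.995 by edgeR; −0.10 without mouse 1), and in the eye cups with dox 0.02 (SE 0.18, adjusted p of 0.972 by edgeR).

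Thumpd3 (ENSMUSG00000030264, chr6:113023186-113045234, plus strand), whose last 1392 bases overlap the end of Gt(ROSA)26Sor on the other strand, did not pass the test in any comparison. It was at 11.0, 11.3 and 12.9 CPM in PRDM13-OE retinas with dox and 11.4, 12.5 and 12.8 in wildtype with dox. Untreated, it was at 15.1, 14.7 and 12.4 CPM in PRDM13-OE and 14.0, 14.5 and 13.9 in wildtype. The genotypes overlapped with and without dox, with log2 ratios of −0.06 (SE 0.11, adjusted p of 0.763 by edgeR) and 0.00 (SE 0.12, adjusted p of 0.999 by edgeR). Both groups with dox were lower on average than their untreated groups, by −0.26 in PRDM13-OE (SE 0.12, adjusted p of 0.333 by edgeR) and −0.21 in wildtype (SE 0.10, adjusted p of 0.559 by edgeR) on the log2 scale, and neither passed the test. Without untreated mouse 1, the change in PRDM13-OE was −0.21 and the untreated genotypes differed by −0.06. The labels describe directional and non-directional libraries without saying which was made, so reads of the overlapping genes on opposite strands cannot be told apart. The same holds for AY702102 within Tshz2 and Hmga2-ps1 within Sdccag8.

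**Figure D3:**
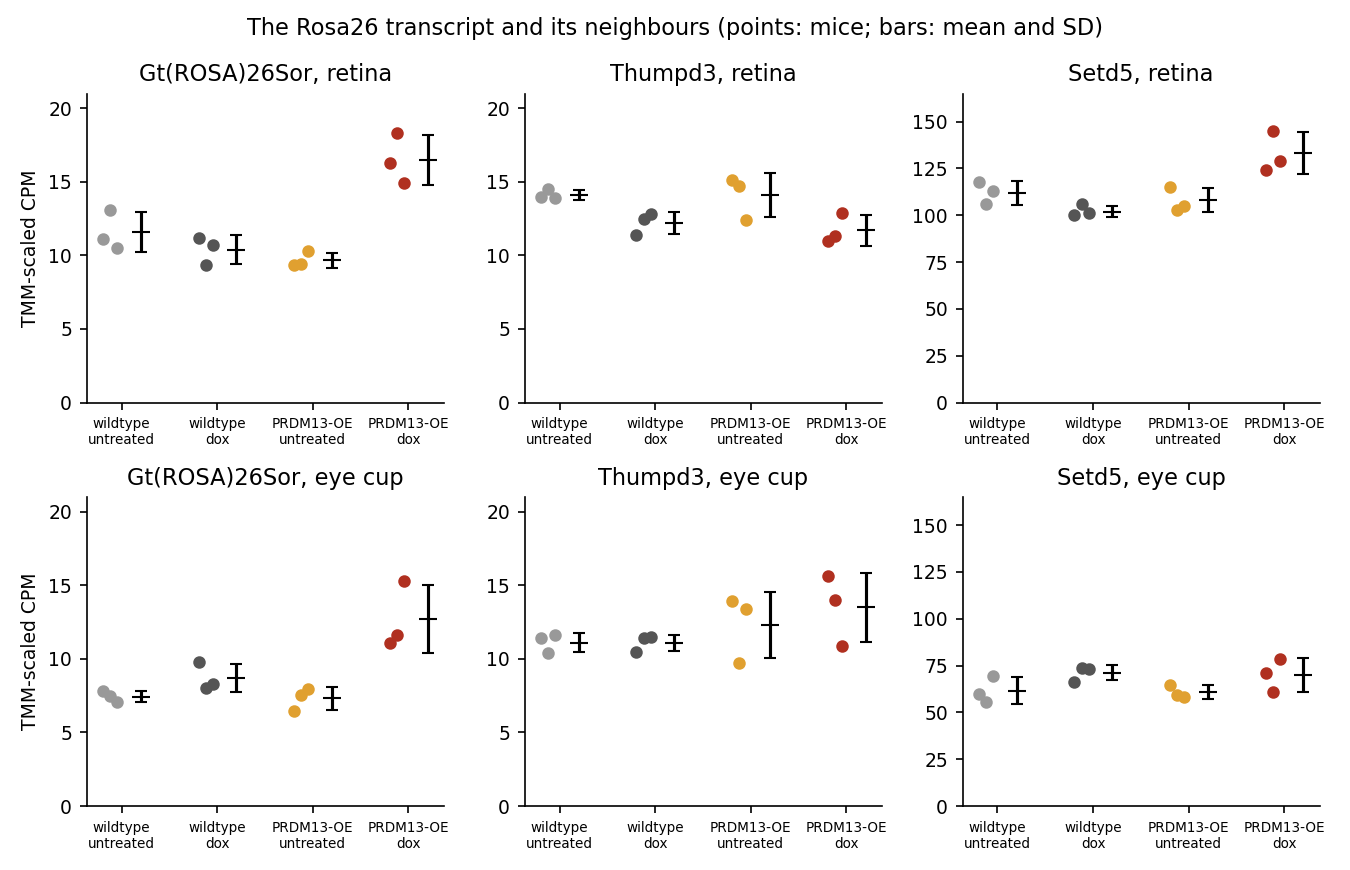
TMM-scaled CPM of Gt(ROSA)26Sor, Thumpd3 and Setd5 in the retinas (upper panels) and eye cups (lower panels), with each point 1 mouse and the bars the mean and SD of 3 mice. PRDM13-OE mice with dox average 16.5 CPM of Gt(ROSA)26Sor in the retina against 9.66 to 11.6 CPM in the other groups, and Thumpd3 overlaps between the genotypes.

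The genes around Rosa26 passed the test about as often as all genes did. Of 41 genes within 500 kb of the ends of Gt(ROSA)26Sor, 28 were tested in the retinas with dox, and 4 passed an adjusted p of 0.05 (14.3%, against 12.5% of all genes), with a median log2 ratio of −0.05 against 0.01. They were Setd5, Gm43935, listed like AY702102 as awaiting proof of transcription, and Cpne9 and Ttll3, which were lower with log2 ratios of −0.41 each (SE 0.11 and 0.10, adjusted p of 0.0299 and 0.0184 by edgeR). Gm43935 had 11, 6 and 3 counts in PRDM13-OE and 0, 1 and 0 in wildtype, a ratio of 19.7 with a 95% exact interval from counting of 3.15 to 816. These 3 were each lost in at least 3 of the 6 fits that left out a retina. Without dox, 26 were tested and 0 passed, and in the eye cups 0 of 27 passed with dox and 0 of 28 without. Among the 3 nearest tested genes on each side, beside Thumpd3 and Setd5, Gm43868, Gm44081, Lhfpl4 and Mtmr14 had log2 ratios of 1.84 (adjusted p of 0.241 by edgeR), 0.12 (0.933), 0.09 (0.306) and −0.03 (0.855) in the retinas with dox.

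**Figure D4:**
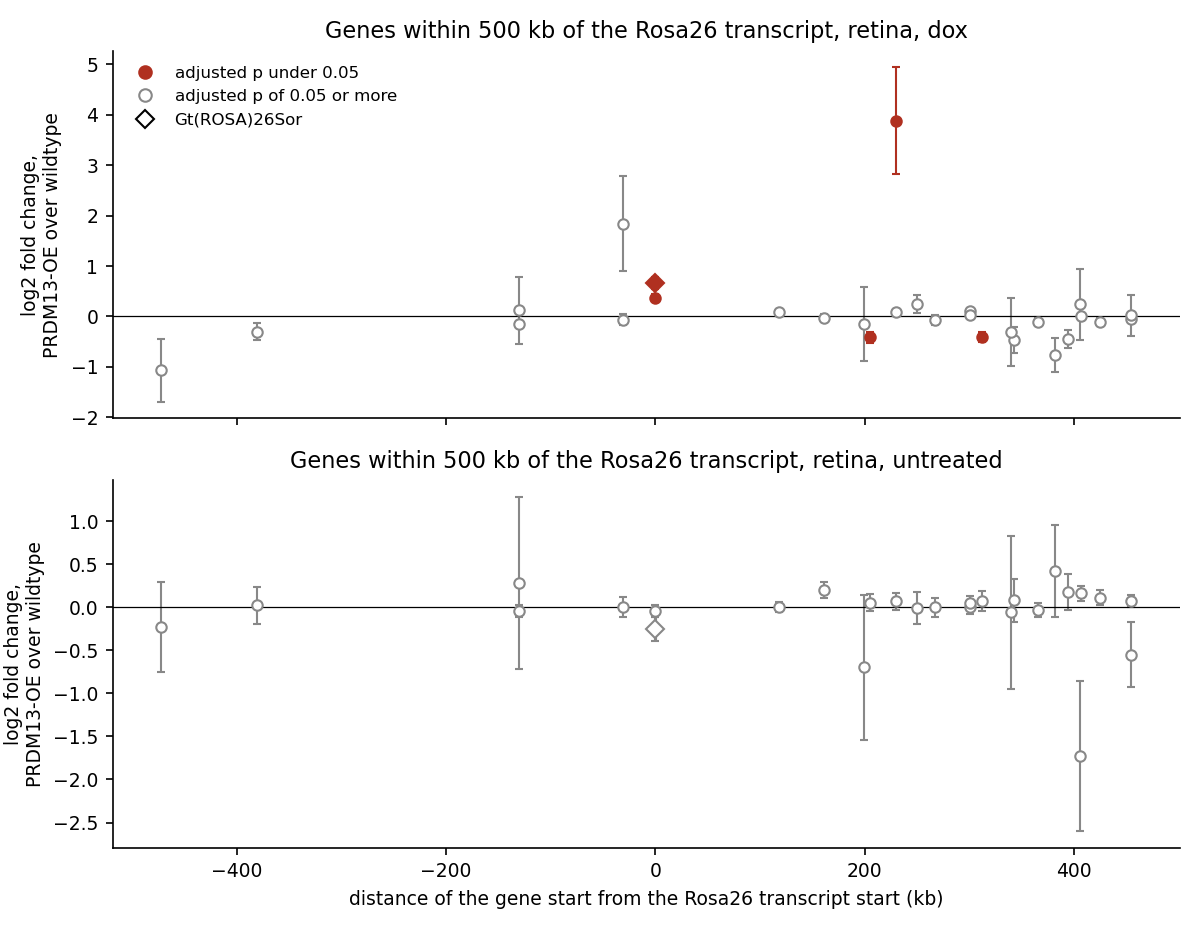
Log2 ratio (points) with its SE (bars) of PRDM13-OE over wildtype retinas for the tested genes within 500 kb of the Rosa26 transcript, plotted by the distance of each gene start from the start of Gt(ROSA)26Sor in kb, with dox (upper) and untreated (lower). With dox, Gt(ROSA)26Sor (diamond, 0.66) and Setd5 (0.37) lie above 0 next to each other, and in untreated retinas 0 of the 26 neighbours passed an adjusted p of 0.05.

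Genes whose mouse copy is named in the design of the knock-in were checked in the same table. Mouse Prdm13 had a log2 ratio of 0.22 in the retinas with dox (SE 0.07, adjusted p of 0.0482 by edgeR), which was lost in 5 of the 6 fits with a retina left out, all but that without PRDM13-OE mouse 3, and 0.08 in untreated retinas (adjusted p of 0.995 by edgeR). Eef1a1, the elongation factor gene that gives the EF-1α promoter its name, was at 2409 CPM in PRDM13-OE retinas with dox and 2516 in wildtype (log2 ratio −0.07, adjusted p of 0.306 by edgeR), and the adult neuronal form Eef1a2 differed by −0.09 (adjusted p of 0.237 by edgeR).

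Between tissues, paired by mouse, only members at the Rosa26 locus differed at an adjusted p under 0.05, where 65.5% of 26034 genes did. Setd5 was lower in the eye cup than in the retina by −0.60 on the log2 scale (SE 0.08, adjusted p of 9.34e-06 by edgeR) and Gt(ROSA)26Sor by −0.24 (SE 0.09, adjusted p of 0.0375 by edgeR), which was lost in 7 of the 12 fits that left out a mouse, with values from −0.42 to −0.19 over the alternatives, the last without PRDM13-OE mouse 2 with dox, untreated PRDM13-OE mouse 1 or untreated wildtype mouse 2. Thumpd3 differed by 0.06 (SE 0.10, adjusted p of 0.605 by edgeR) and Gm13394 by −0.23 (SE 0.17, adjusted p of 0.253 by edgeR). For Gm13394, that fit pools the high mice with the low ones. In the high mice with dox, retina and eye cup were at 509 and 221, 490.5 and 243, and 525 and 518 CPM. In the untreated high mice they were at 507 and 317, and 493 and 204 CPM, with CPM scaled within each tissue. Per merged exon length, untreated wildtype retinas held Setd5 at 5.19 to 5.94 FPKM, Gt(ROSA)26Sor at 3.14 to 3.84, Gm13394 at 2.26 to 4.00 and Thumpd3 at 1.96 to 2.00, with Hmga2-ps1 at 0.0566 to 0.254 and AY702102 and Gm7135 listed at 0.

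Levels of other cell types were set beside these groups. The 7 rod genes summed to 46456 to 52851 CPM in PRDM13-OE retinas with dox and to 62985 to 69038 CPM in the other 9 retinas. The 5 red blood cell genes summed to 0.706 to 1.19 CPM in PRDM13-OE retinas with dox and 21.6 to 77.8 CPM in the other 9, and to 12.1 to 14.7 against 236 to 3404 CPM in the eye cups. The 6 lens crystallins summed to 29.1 to 45.6 CPM in PRDM13-OE and 124 to 10486 CPM in wildtype retinas with dox, and without dox to 38.0 to 116 CPM in PRDM13-OE against 182 to 747 CPM in wildtype, so the PRDM13-OE retinas overlapped with and without dox. The RPE, fibroblast and skeletal muscle lists ran from 556 to 609.5, 9.47 to 23.4 and 4.47 to 4.72 CPM in PRDM13-OE retinas with dox, against 759.9 to 852, 17.0 to 30.6 and 4.03 to 5.54 CPM in wildtype retinas with dox, and the last 2 lists overlapped. Gm13394 was at 4.84, 507 and 493 CPM in the untreated PRDM13-OE retinas, whose 7 rod genes summed to 69038, 63082 and 62985 CPM. The part of these cell types in the levels of Gm13394, AY702102, Gm7135, Hmga2-ps1, Gt(ROSA)26Sor and Setd5 was not tested.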

How the data were processed

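RNA sequencing of 24 libraries from 12 mice was done for the authors by Novogene. The submitters' processing notes name CASAVA, HISAT2 and the build GRCm39. The counting tool, the annotation release and the treatment of reads with several matches are not given in the sources used here. The authors deposited raw read counts per gene, which were the input to every test, and FPKM values, which they derived from read counts and gene lengths and which were used here only to set genes beside each other. The 60 deposited columns of the authors' 12 comparisons (group means, log2-fold changes, p-values) were not used.

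The members and lists were chosen with earlier results of these data known. A gene was tested where its counts over the compared libraries added up to 10 or more, by edgeR 4.0.16 run in R 4.3.3 (TMM factors, quasi-likelihood test, Benjamini-Hochberg adjustment over all genes tested), on the libraries of the groups compared. Differences between effects used the 12 libraries of a tissue, and the tissue comparison used the mouse as a block. Calls needed an adjusted p below 0.05 together with a log2 ratio beyond 1. Alternatives were DESeq2 1.42.0, library size scaling, no filter, filterByExpr, all 12 libraries in one fit, a block on the mouse number, robust fitting and leaving out each library. The scripts were tested on simulated data. No replicates of a group were copies of each other. Gene sequences of GENCODE vM39 on GRCm39 were compared with blastn 2.17.0. By rule, the genes named were the 7 members, genes within 500 kb of Gt(ROSA)26Sor (the nearest and those that passed), Prdm13, Eef1a1, Eef1a2, the closest protein-coding match of Gm13394, Gm7135 and Hmga2-ps1 and the 5 genes most like Gm13394. Gm7336, Cfap77, Tshz2 and Sdccag8 were named after their values were seen. Human PRDM13 and the rest of the insert were not analysed here.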

Additional observations from a re-analysis of the deposited data

Results flagged for a closer look

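The effect of dox on Gt(ROSA)26Sor and Setd5 differed between PRDM13-OE and wildtype retinas by the test of the difference itself. For Gt(ROSA)26Sor, the difference was 0.92 on the log2 scale (SE 0.17, edgeR adjusted p = 0.00431), and it held with each of the 12 retinas left out. For Setd5, it was 0.43 (SE 0.10, edgeR adjusted p = 0.0198), lost without PRDM13-OE retina 2 with dox or untreated wildtype retina 1. For Hmga2-ps1, the difference was 3.81 (SE 0.78), and 3.39 without untreated PRDM13-OE mouse 1. This is a description with no test, since its PRDM13-OE libraries with dox chose the gene. AY702102 and Gm7135 were at 0 in a control group, so their differences have no finite estimate. In the eye cups, 0 members passed the same test in edgeR, where 0.0% of 23837 genes were called, and 0 in DESeq2, where 22 genes were called.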

How the results depend on the processing

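The members called in untreated retinas numbered 0 with all libraries, 1 with DESeq2, 1 without a filter, and 0 to 1 with 1 library left out, the 1 being Gm13394 without PRDM13-OE mouse 1. In untreated eye cups, they numbered 0, 1 with DESeq2 and 0 to 1 with 1 library left out, where leaving out PRDM13-OE mouse 1 moved the calls among all genes from 0 to 8 higher and 290 lower. In the eye cups with dox, 1 was called, against 2 with DESeq2, 0 with library size scaling, filterByExpr or all 12 libraries, and 0 to 1 with 1 library left out. For the difference in dox effect in the retina, 1 was called (Hmga2-ps1, whose libraries chose it), and 0 to 1 with 1 library left out. The block on the mouse number gave 0 members in the eye cups with dox, and Setd5 with dox in PRDM13-OE retinas was then at an adjusted p of 0.0632. Equal numbers did not pair the mice (correlation of deviations −0.33 to 0.3 in the retinas and −0.58 to 0.64 in the eye cups, with 0 of 12 group pairs over 0.1 throughout), and the block changed no other call of a member. Gapdh, which did not pass in the retinas with dox, passed there under the block at 1.44 (edgeR adjusted p = 0.0446) and without wildtype retina 1. The passes of Gapdh with dox and of untreated Gm13394 without a filter kept the log2 ratios of the main fit and are not read. Among all genes in the retinas with dox, 186 were called higher and 309 lower with TMM factors, 279 and 269 with library size, and 221 and 224 with the robust fit. DESeq2 called 100 genes in the eye cups with dox against 4 by edgeR, 1979 against 0 for dox in wildtype eye cups, and 26 against 1 in wildtype retinas. The cause of these changes was not tested, apart from the library left out. No value of a called member changed sign. AY702102, with at most 18 counts in a library, is limited by depth.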
